A study of Mus musculus with 27 samples.

Results

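The ratio of NOD to NOD.B10 spleen RNA at 20 weeks of age was compared with the ratio at 4 weeks on 10 of the 27 arrays of the series, 5 arrays for each age. NOD mice (NOD/LtJ) develop autoimmune diabetes spontaneously. NOD.B10 mice (NOD.B10Sn-H2b/J) share most of that background but carry the H2b haplotype at the major histocompatibility complex. All animals were female, every array bears the same disease-state label whatever the age, and the replicates are separate arrays whose animals are not named. Each array carried 2 colours: spleen RNA of NOD mice in Cy3 (green, called the NOD dye here) and of NOD.B10 mice in Cy5 (red, the reference dye). No array had the dyes exchanged, so dye and strain go together throughout. The other 17 arrays came from NOD mice of 10 days and of 8, 12 and 16 weeks. The control mice are described as 10 animals aged 10 days and 10 aged 20 weeks. The age of the control RNA on the 4-week arrays, and whether the 5 arrays of an age shared a pool, are not given in the sources used here. A change of the ratio between ages can therefore come from the NOD side, from the control side, or from both. The dye that moved is given for several lists and for part of the genes named.

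The array files record when and how each slide was scanned. All 5 arrays of 4 weeks belonged to scan campaign 1, and all 5 arrays of 20 weeks to campaign 3, with another scanner and another version of the scanner software (8.1.1.1 and 8.5.1.1). Age and campaign cannot be told apart within these 10 arrays. The 20-week arrays were also dimmer. The share of probes well above background in the NOD dye was 72.9% to 76.8% at 20 weeks and 83.6% to 86.3% at 4 weeks. In the reference dye it was 52.2% to 62.6% and 79% to 83%. The part of brightness in the changes was not tested beyond the filter that follows and a restriction to genes brighter than the median, where 703 were called. That restriction tested fewer genes, so its count cannot be set directly against the count of the full comparison. The comparison was therefore held to probes that exceeded background clearly on each of the 10 arrays, in Cy3 and in Cy5, which were 18372 of 41174. The brightest of these without an outlier spot stood for each of 13537 genes. The campaigns are bridged by the 10-day arrays: replicate 4 of that age was scanned in campaign 1, and replicates 1 to 3 on the day of the 20-week arrays. A fit of all 27 arrays with campaign as a block uses this bridge, which at the 4-week end rests on that 1 array. Its counts of calls are given with the lists described, and its values for single genes on which a result turns. Of the lymphoid markers, 24 of 25 listed B-cell genes and 28 of 29 listed T-cell genes passed the filter. So did 23 of 27 listed genes of the exocrine pancreas, so passing is no test of the tissue label. Xist, transcribed from the inactive X chromosome of females, was well above background in each dye on 10 of 10 arrays. Among the Y-linked transcripts, Eif2s3y also passed this threshold for the NOD dye on 10 arrays, Kdm5d and Uty on 7 and Ddx3y on 3, and for the reference dye Kdm5d passed on 5, Eif2s3y on 4 and the others on none.

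The mouse spleen filters blood and houses B cells, T cells and natural killer cells, and unlike the human organ it makes red cells and granulocytes throughout life. Erythroblasts in its red pulp divide rapidly and depend on the transcription factors GATA1, TAL1 and KLF1, on the heme pathway and on iron uptake through the transferrin receptor. Interferons induce a shared set of antiviral genes and chemokines, and T cells and natural killer cells are the main source of interferon gamma. A bulk RNA ratio cannot tell a different number of cells of a type from a different amount of RNA per cell.

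At 20 weeks the ratio was called higher in 23 of 31 genes of red-cell formation, 4 of 12 of heme synthesis and 7 of 28 of the G2 and M phases, and in some immediate early, heat shock and neutrophil granule genes. It was called lower in 6 of 14 genes of natural killer cells, 6 of 28 of T cells and 8 of 32 of the interferon response, and chemokines and their receptors held calls in both directions. The ratio is given as log2 of NOD over NOD.B10 signal, so that 1 is a 2-fold difference, and a gene was called when it changed at least 2-fold with an adjusted p under 0.05 (limma, Benjamini-Hochberg over all genes tested). Of 13537 genes, 586 were called higher at 20 weeks (4.33%) and 925 lower (6.83%). Each count of calls in a list is to be set beside these shares. The median change over all genes was -0.09. With normexp background correction and loess the counts were 265 higher (1.96%) and 264 lower (1.95%). There 50.1% of calls were higher, against 38.8% here. In 1404 of the 1511 called genes the 5 values of one age did not overlap the 5 of the other. The calls rest on these same values, so this count is no separate support, and the share over all genes is not given.

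To see which side moved, each dye was scaled to its own array's 75th percentile and tested alone. The NOD dye was called higher in 8.07% of genes and lower in 16.2%, and the reference dye higher in 9.36% and lower in 14.3%. Most of that movement was common to both dyes and left the ratio as it was: across genes the 2 changes had a correlation of 0.82, on arrays that share a scan day within each age. Among the 1511 genes called for the ratio, the NOD dye moved at least 2 times as far as the reference dye in 532, the reverse held in 523, and the other 456 are called moved in both. The dyes changed in opposite directions in 827 of the 1511. In the fit with a campaign block, 393 genes were called higher (2.9%) and 514 lower (3.8%). Of the 1511 genes, 739 kept call and direction there (298 higher and 441 lower), and 16 changed sign. The single dyes moved more with that block than the ratio did: genes called in the NOD dye went from 3286 to 234, and in the reference dye from 3205 to 1282. The dye assigned to a called gene was the same with the block in 259 of 532, 335 of 523 and 146 of 456 genes.

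**Figure D1:**
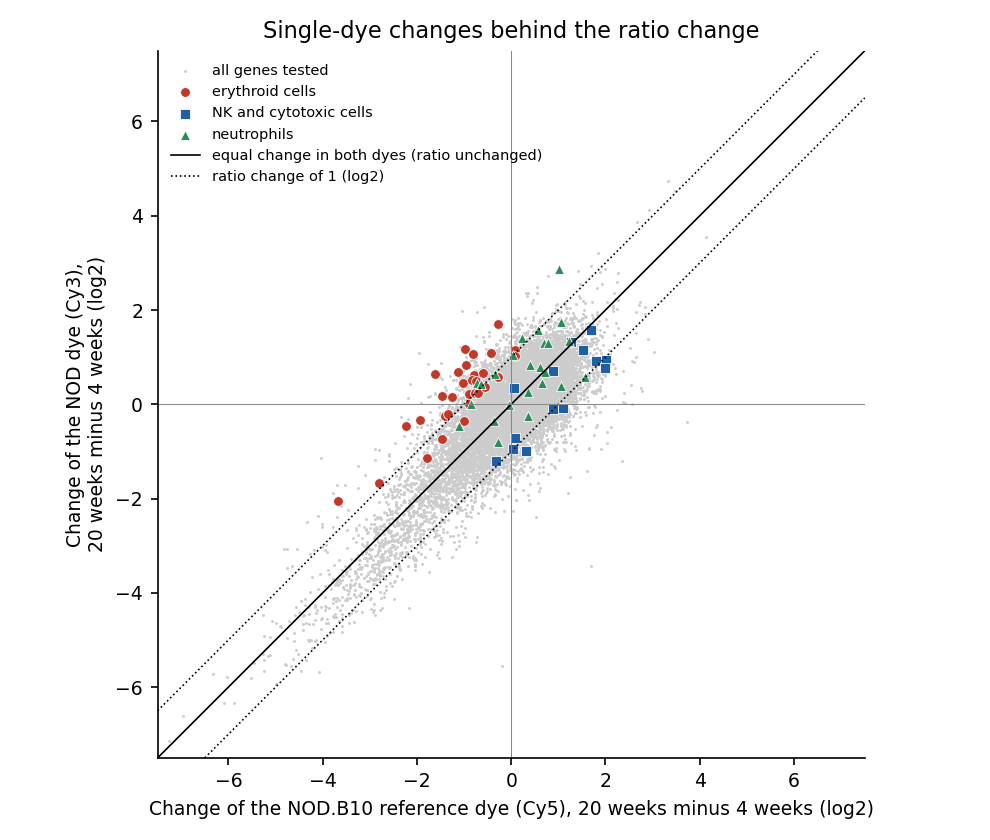
Change of the NOD dye (vertical) against change of the NOD.B10 reference dye (horizontal) from 4 to 20 weeks, each log2 relative to the array's 75th percentile, for 13537 genes (grey points) and for the members of 3 gene lists. Points on the solid diagonal kept their ratio. The erythroid genes lie above it, mostly to the left of 0. The genes of NK and cytotoxic cells lie mostly below it and to the right of 0, with 2 of 14 above it.

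The erythroid list changed as a block in the ratio. All 31 tested members had a change above 0 with an adjusted p under 0.05 (20.9% of all genes), and 23 of the 31 were also past 2-fold and called higher, with none lower. The median change was 1.24 (log2), against -0.09 over all genes. The called members covered transcription factors (Klf1, Gata1, Tal1, Nfe2), the membrane skeleton (Epb42, Sptb, Ank1), the anion exchanger Slc4a1 and the carbonic anhydrases Car1 and Car2. The reference dye was the side that moved further on the whole. Its median change over the list was -0.96 and that of the NOD dye 0.36. The reference dye alone was called lower in 14 of 31 members (14.3% of all genes), and the NOD dye called higher in 6 (8.07%). By gene, 10 of the 23 calls were assigned to the reference dye, 10 to both and 3 to the NOD dye.

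Trim10, a TRIM-family protein active in late erythroid differentiation, changed most in the list. Its ratio on replicates 1 to 5 was -0.31, -0.41, -1.06, -0.02 and -0.12 at 4 weeks and 1.77, 2.11, 1.58, 1.89 and 2.06 at 20 weeks. Every 20-week value was far above every 4-week value. The change was 2.27 ± 0.19 (SE), a 4.81-fold rise (adjusted p = 5.1e-06, limma). In the reference dye the 5 values lay at 2.13 to 2.32 at 4 weeks and 0.44 to 0.72 at 20 weeks, and in the NOD dye at 1.21 to 2.26 and 2.03 to 2.83, so that only the reference values were fully apart. Klf1, the master erythroid activator of the Krüppel-like family, stood at -1.07, -1.46, -1.58, 0.06 and 0.00 at 4 weeks and 1.24, 1.43, 1.37, 1.09 and 1.55 at 20 weeks. The 4-week arrays fell into a lower set, replicates 1 to 3, and a pair near 0, both below every 20-week array. Its change was 2.15 ± 0.30 (adjusted p = 0.00011, limma), with both dyes moving, by 1.17 and -0.98. Epb42, protein 4.2 of the red-cell membrane, had 4-week ratios of -0.61, -0.66, -0.46, -0.18 and -0.16 and 20-week ratios of 1.14, 1.41, 1.11, 1.44 and 1.59. The rise of 1.75 ± 0.14 was on the reference side, which changed by -2.23 while the NOD dye changed by -0.47.

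The transferrin receptor Tfrc, which takes up iron, shows how far the single dyes can go together. It was called higher by 1.14 in the ratio, yet both dyes were lower at 20 weeks, by -1.66 (NOD) and -2.81 (reference). The globin probes were at the scanner's ceiling: Hbb-bt, 1 of the 23 calls, was saturated in both dyes on all 10 arrays and Hba-a1 in the reference dye on all 10, so no fold is given for either. The enzymes and carriers of heme synthesis followed the erythroid list. Of 12 tested genes 4 were called higher and none lower, with a median of 0.84. Alad, which makes porphobilinogen, was higher by 1.73 ± 0.16, Ppox by 1.36 and the mitochondrial glycine carrier Slc25a38 by 1.25. Alas2, the rate-limiting enzyme in erythroid cells, was just short of 2-fold at 0.97 (adjusted p = 0.00047, limma), on values of -0.07 to 0.80 at 4 weeks and 1.18 to 1.69 at 20 weeks that did not overlap. The reference dye again carried more of the difference in this list, at a median of -1.02 against 0.10 for the NOD dye. The campaign block left the medians close to these, at 1.17 for the erythroid list and 0.84 for heme synthesis, but called 2 of the 31 and 3 of the 12 genes, against 2.9% of all genes. On that fit Klf1 changed by 2.01 with an adjusted p of 0.13 (limma), and Epb42 by 1.47 with 0.27. Trim10 changed by 2.2 and kept its call only just, with an adjusted p that rounds to 0.05 (limma).

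The start-site regions of the erythroid genes that changed most are shown because the members moved together and are textbook targets of GATA1 and KLF1. They were searched on both strands for AGATAA or TGATAA (the GATA motif) and for CCNCNCCC (the KLF1 motif). The 250 bases before the first listed start of the 4 called members with the largest changes that have an entry read as follows, 5′ to 3′ on the gene's strand (RefSeq, GRCm38.p6), with matches in capitals:
Trim10, chr17:36869324-36869573, plus strand: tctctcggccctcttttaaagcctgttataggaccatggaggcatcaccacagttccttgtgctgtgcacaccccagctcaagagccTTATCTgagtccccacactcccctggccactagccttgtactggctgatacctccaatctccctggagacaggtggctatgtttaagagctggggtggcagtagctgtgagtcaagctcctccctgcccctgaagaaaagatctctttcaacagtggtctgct
Klf1, chr8:84901732-84901981, plus strand: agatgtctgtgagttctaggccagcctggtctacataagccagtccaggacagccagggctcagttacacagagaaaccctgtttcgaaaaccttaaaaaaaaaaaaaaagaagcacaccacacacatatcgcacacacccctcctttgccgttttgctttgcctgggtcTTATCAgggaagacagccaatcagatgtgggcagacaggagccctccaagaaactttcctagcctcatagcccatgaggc
Mgst3, chr1:167393842-167394091, minus strand: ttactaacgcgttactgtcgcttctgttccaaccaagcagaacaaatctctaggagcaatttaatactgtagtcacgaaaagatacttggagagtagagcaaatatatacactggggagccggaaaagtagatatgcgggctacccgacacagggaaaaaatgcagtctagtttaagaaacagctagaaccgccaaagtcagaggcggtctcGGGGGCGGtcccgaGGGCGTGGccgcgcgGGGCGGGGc
Sptb, chr12:76710548-76710797, minus strand: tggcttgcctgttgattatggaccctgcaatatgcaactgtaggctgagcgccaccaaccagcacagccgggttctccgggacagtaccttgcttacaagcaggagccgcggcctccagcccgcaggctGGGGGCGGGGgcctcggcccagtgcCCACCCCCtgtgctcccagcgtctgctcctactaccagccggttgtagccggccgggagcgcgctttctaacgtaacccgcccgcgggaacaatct
Trim10 and Klf1 each held 1 GATA match and no KLF1 match, and Mgst3 and Sptb held KLF1 matches only. Of the 21 tested erythroid genes with an entry, 13 held the GATA motif (61.9%) and 12 the KLF1 motif (57.1%). Over all 27025 genes of the table the shares were 17% and 45.6%. These are letter matches in a fixed window, not sites of binding.

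Genes of dividing cells moved the same way, though fewer passed 2-fold. Of 28 tested genes of the G2 and M phases, 7 were called higher and none lower (median 0.68), and of 29 genes of the S phase, 8 were called higher and 1 lower (median 0.67). Mki67, the proliferation antigen of cycling cells, had ratios of -0.53, -0.42, -0.71, 0.19 and 0.07 at 4 weeks and 0.90, 1.43, 1.0, 0.89 and 0.88 at 20 weeks. The ages did not overlap, and the 4-week arrays again split into replicates 1 to 3 and the pair of replicates 4 and 5. The change was 1.30 ± 0.18 (adjusted p = 0.00013, limma). Rrm2, the small subunit of ribonucleotide reductase, was at -1.0, -1.1, -1.02, -0.48 and -0.48 and then at 0.26, 0.67, 0.41, 0.68 and 0.63. It rose by 1.34 ± 0.16 through the reference dye, which changed by -1.79 against -0.44 for the NOD dye. Ube2c, of the anaphase-promoting machinery, rose by 1.33 and Nusap1, of the spindle, by 1.40, and the flap endonuclease Fen1 rose by 1.52. The reference dye had the larger median change in both lists, -0.75 and -0.82 against -0.17 and -0.09 for the NOD dye. The campaign block left no gene of either list called (limma), at medians of 0.47 and 0.55, and 3 and 5 had an unadjusted p under 0.05 (28.9% of all genes). With normexp 3 and 8 were called higher. The G2 and M count was 3 without replicate 2 or 3 of 4 weeks and 4 without replicate 2 of 20 weeks.

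**Figure D2:**
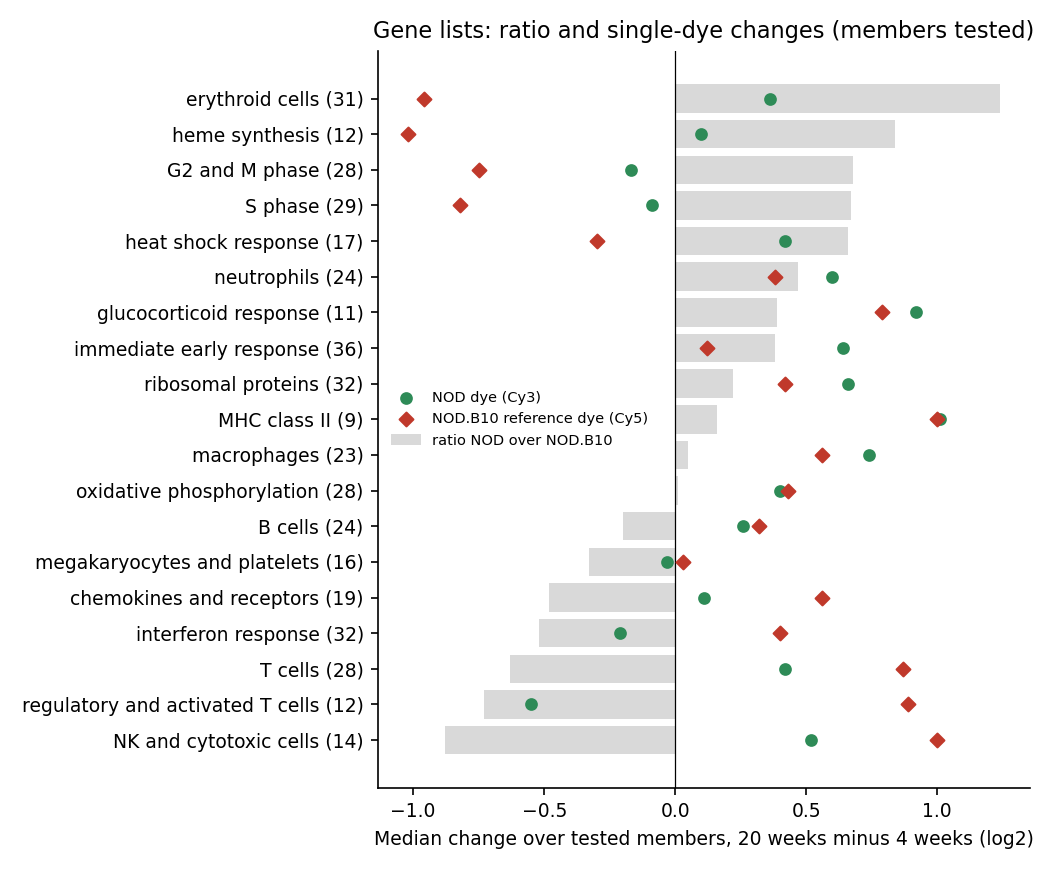
Median change from 4 to 20 weeks over the tested members of 19 gene lists (number of members in brackets), on a log2 scale: grey bars for the NOD over NOD.B10 ratio, green circles for the NOD dye and red diamonds for the reference dye. In the erythroid list the reference dye lies at -0.96 and the NOD dye at 0.36, while in the NK and cytotoxic list both lie above 0, at 1.0 and 0.52.

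Immediate early genes, which are switched on within minutes of a stimulus, and heat shock genes moved in part. Of the immediate early calls 5 were assigned to the NOD dye, 2 to the reference dye and 3 to both. Of the heat shock calls 1 was assigned to the NOD dye, 3 to the reference dye and 1 to both. Of 36 immediate early genes 9 were called higher and 1 lower (median 0.38), against 4.33% and 6.83% of all genes. Klf2, a Krüppel-like factor of quiescent lymphocytes and endothelium, had the largest rise of all genes named here. Its ratios were 0.03, -0.14, -2.25, -0.96 and -0.75 at 4 weeks and 2.16, 1.79, 3.00, 2.16 and 1.95 at 20 weeks, a change of 3.02 ± 0.37 (adjusted p = 5e-05, limma). The lowest 20-week array was well above the highest 4-week array, but the second tested Klf2 probe changed by -0.38, so the 2 probes of this gene disagree. Ppp1r15a, a stress-induced regulator of eIF2 dephosphorylation, rose by 2.61 ± 0.27 on its only probe, from 0.16, -0.09, -1.32, 0.48 and 0.35 to 2.64, 2.64, 2.44, 2.38 and 2.52. The NOD dye changed by 1.08 in Klf2 and 0.86 in Ppp1r15a, and the reference dye by -1.95 and -1.76. In Sik1 (1.77), Fos (1.59), Myc (1.37) and Dusp1 (1.22) the NOD dye was the side that moved, and the reference dye changed by 0.02, -0.18, 0.04 and -0.19. Myc read -0.78, -0.58, -0.13, -0.06 and -0.55 at 4 weeks and 0.93, 1.01, 0.82, 1.01 and 0.98 at 20 weeks. Its 3 tested probes ranged from -0.13 to 1.44, with a mean of 0.89. Ier2 rose by 1.56 on its brightest probe and changed by -1.80 on the other, which gave a mean of -0.12. Klf4 was the member called lower, by -1.22. The campaign block left 4 of the 36 called, all higher, against 2.9% of all genes.

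Among 17 heat shock genes 5 were called higher (4.33% of all genes) and none lower (median 0.66). Hspa8, the constitutive HSP70 chaperone, had ratios of -0.56, -0.92, -1.02, -0.33 and -0.61 at 4 weeks and 0.84, 0.58, 0.89, 0.86 and 0.93 at 20 weeks. The change was 1.51 ± 0.14 (adjusted p = 1.2e-05, limma), with no overlap, a second probe at 2.19, and a value of 1.49 with campaign as a block. Its co-chaperone Dnaja1 rose by 1.76, although its 3 probes ranged from 0.28 to 1.76, and the inducible Hspa1a rose by 1.56. Without replicate 2 or 3 of 4 weeks, or replicate 3 of 20 weeks, the list had 3 calls, as it had with the block and with normexp. The glucocorticoid list was divided, with 3 of 11 genes higher and 1 lower, against 4.33% and 6.83% of all genes. Fkbp5, a chaperone induced by glucocorticoids, was at -1.20, -1.33, -0.36, -1.80 and -2.01 and then at 0.72, -1.40, 1.30, 1.35 and 1.0. Replicate 2 of 20 weeks stayed within the 4-week range, and the change was 1.93 ± 0.47 (adjusted p = 0.0046, limma). Its second probe changed by 0.46. The clock gene Per1, also glucocorticoid-responsive but counted in the clock list and not in this one, rose by 1.93. The same array was lowest of its age for Per1, at 0.40. Within the glucocorticoid list Tsc22d3 rose by 1.78, and the metallothionein Mt2 was lower by -1.51. The remaining member called higher is not named here. None of Fkbp5, Per1, Tsc22d3 and Mt2 was called with the block (adjusted p = 0.078 to 0.17, limma).

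Of 24 tested neutrophil genes 5 were called higher (4.33% of all genes) and none lower. Of these calls 3 were assigned to the NOD dye and 2 to both. Ngp, the neutrophilic granule protein, had ratios of 0.75, 1.35, 0.90, 0.70 and 0.43 at 4 weeks and 2.50, 2.54, 2.85, 2.93 and 2.50 at 20 weeks. It was above the control on every array of both ages and rose by 1.84 ± 0.17, or 3.58-fold (adjusted p = 9.5e-06, limma). The NOD dye went from between -0.75 and 0.09 to between 1.99 and 2.75, a change of 2.86. The reference dye changed by 1.01. Camp, the cathelicidin, rose by 1.19 with 1.41 in the NOD dye and 0.22 in the reference dye, and Elane, neutrophil elastase, by 1.01 with 1.58 and 0.57. Cd177 and the gelatinase Mmp9 were called too. The list's median was 0.47 in the ratio, 0.60 in the NOD dye and 0.38 in the reference dye. Cxcr2, Csf3r and S100a9, a chemokine receptor, the G-CSF receptor and a calcium-binding alarmin of neutrophils, were not called, at -0.67, 0.12 and 0.17. Without replicate 4 of 20 weeks 3 genes were called higher and 1 lower. With normexp 2 were called higher (1.96% of all genes), where Elane was at 0.48 and Cd177 at 0.37. The block left 3 called higher (2.9% of all genes), Ngp among them at 1.77. Camp kept its size there at 1.20, with an adjusted p of 0.10 (limma).

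**Figure D3:**
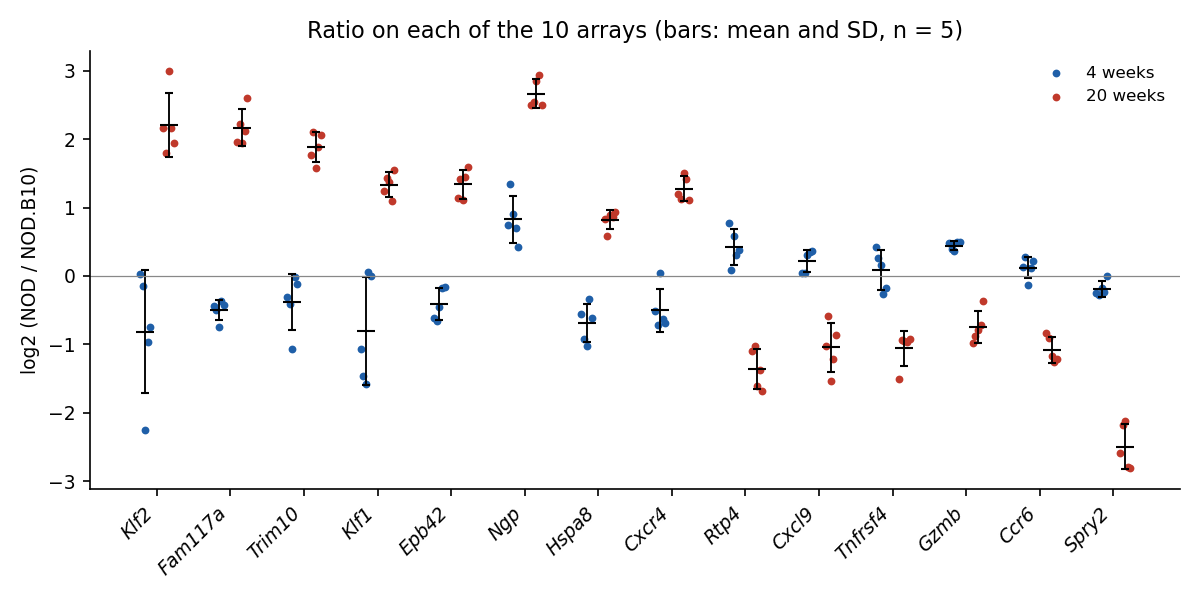
Ratio of NOD over NOD.B10 (log2) on each of the 10 arrays for 14 genes: blue points are the 5 arrays of 4 weeks, red points the 5 of 20 weeks, and black bars the mean and SD of each age. In each gene shown the points of the 2 ages do not overlap, and Klf2 and Klf1 spread most at 4 weeks (SD 0.90 and 0.79).

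In the opposite direction, genes of cytotoxic lymphocytes had the lowest list median apart from the exocrine pancreas. Of 14 tested genes of NK and cytotoxic cells 6 were called lower and none higher, with a median of -0.88. Gzmb, the cytotoxic protease granzyme B, had 4-week ratios of 0.48, 0.39, 0.36, 0.49 and 0.49 and 20-week ratios of -0.98, -0.87, -0.79, -0.72 and -0.36. The tight 4-week group lay wholly above the 20-week group, and the change was -1.18 ± 0.13 (adjusted p = 2.2e-05, limma). It came from the reference dye, which changed by 1.1, with -0.07 in the NOD dye. Ccl5, a chemokine of memory T and NK cells, read 0.52, 0.62, 0.87, -0.29 and 0.01 and then -0.92, -0.92, -0.77, -0.68 and -1.04, a change of -1.21 ± 0.20. In the reference dye Ccl5 went from 1.87 to 2.28 up to 3.94 to 4.2, and in the NOD dye from 1.82 to 3.13 up to 3.08 to 3.43. The second probe of Ccl5 changed by -0.06, and the mean of both was -0.64. Ifng, interferon gamma, was lower by -1.09 and the perforin gene Prf1 by -1.01, both through the reference dye, whereas the receptors Klrk1 (-1.32) and Klrb1c (-1.0) were lower through the NOD dye. The second probe of Ifng changed by -0.33 and that of Klrk1 by 0.55, and with the block Klrk1 changed by 0.43 in the NOD dye and 1.54 in the reference dye. The reference dye was called higher in 7 of the 14 (9.36% of all genes). Without replicate 5 of 20 weeks 3 of the 14 were called, with campaign as a block 2, and with the normexp correction of background 1, where Gzmb was at -0.48.

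Of 28 tested T-cell genes 6 were called lower and none higher, with a median of -0.63. Here the 4-week arrays disagreed among themselves: the list's median ratio was 0.81, 0.48 and 0.87 on replicates 1 to 3 and -0.30 and -0.25 on replicates 4 and 5. At 20 weeks it was between -0.34 and -0.16 on all 5 arrays. The ages therefore overlapped, and without replicate 4 or 5 of 4 weeks 10 genes were called, without replicate 3 of 4 weeks 4. Cd3d, a chain of the T-cell receptor complex, shows the split with 1.12, 0.80, 1.32, -0.40 and -0.35 at 4 weeks and -0.63, -0.75, -0.59, -0.75 and -0.78 at 20 weeks. Its change of -1.20 ± 0.30 came to -0.99 without replicate 3 of 4 weeks and was then not called. Cd3e did not show the split: it read -0.13, 0.04, -0.24, -0.05 and 0.02, then -1.42, -1.32, -1.81, -1.75 and -1.30, a change of -1.45 ± 0.13. Both dyes of that probe were far lower at 20 weeks, by -4.36 (NOD) and -2.92 (reference). With campaign as a block those changes were 0.05 and 1.13, and the ratio change -1.09. With normexp the ratio change was -0.36, which is under the 2-fold threshold. Il7r, the interleukin 7 receptor, was lower by -1.67 and Dapl1 by -1.45, through the reference dye. With campaign as a block 3 of the 28 were called lower, against 3.8% of all genes, and with normexp 3, against 1.95%.

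In the list of regulatory and activated T cells 4 of 12 tested genes were called lower and none higher, with a median of -0.73. Nrp1, neuropilin 1, was lower by -1.78 ± 0.27 and Ikzf2, the transcription factor Helios, by -1.55 ± 0.22. Tnfrsf4, the costimulatory receptor OX40, read 0.42, 0.27, 0.16, -0.27 and -0.17 at 4 weeks and -1.51, -0.94, -0.95, -0.96 and -0.92 at 20 weeks, and Gpr83 0.50, 0.25, 0.46, -0.55 and -0.46 and then -1.16, -1.18, -0.94, -0.99 and -1.15. In both genes the 2 ages did not overlap. Tnfrsf4 changed by -1.14 mainly through the reference dye and Gpr83 by -1.12 through the NOD dye. The NOD dye was called lower in 4 of the 12 (16.2% of all genes) and the reference dye higher in 6. Nrp1 has 3 probes on the array, of which 1 passed in both dyes; a filter that asks for 1 dye only brings in a brighter one, at 0.20. With the block 3 of the 12 were called, and Gpr83, at -1.15, was not (adjusted p = 0.06, limma). With normexp 1 was called, and Nrp1 and Ikzf2 were at -0.73 and -0.67.

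Interferon-response genes had a smaller median change. Of 32 tested genes 8 were called lower and none higher, with a median of -0.52, and by adjusted p alone 19 were lower (29.4% of all genes) and 2 higher (20.9%). Rtp4, an interferon-induced chaperone of receptors, had ratios of 0.78, 0.09, 0.58, 0.31 and 0.38 at 4 weeks and -1.09, -1.03, -1.61, -1.37 and -1.68 at 20 weeks. All 4-week values were above 0 and all 20-week values below -1, and the change was -1.79 ± 0.17, or 3.45-fold lower (adjusted p = 1.1e-05, limma). Both dyes moved, the NOD dye by -1.06 and the reference dye by 0.72. Cxcl9, a chemokine induced by interferon gamma, read 0.05, 0.05, 0.30, 0.35 and 0.37 and then -1.02, -0.59, -1.53, -1.21 and -0.86, a change of -1.27 ± 0.17 that was mainly in the reference dye. Cxcl10, its neighbour in the same family, was lower by -1.25 ± 0.14, mainly in the NOD dye. Ifit3, Mx2 and Ifit1, which restrict viral RNA or virus entry, were lower by -1.08, -1.09 and -1.01. Without replicate 1 of 4 weeks 5 genes were called, with campaign as a block 5 and with normexp 5.

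The same region of the called interferon genes is shown for the 3 with the largest changes that have an entry, since the interferon-stimulated response element is a well-known shared feature of such genes. The letters searched, on both strands, were GAAA, any 2 bases and GAAA again, in capitals where found:
Cxcl9, chr5:92328080-92328329, minus strand: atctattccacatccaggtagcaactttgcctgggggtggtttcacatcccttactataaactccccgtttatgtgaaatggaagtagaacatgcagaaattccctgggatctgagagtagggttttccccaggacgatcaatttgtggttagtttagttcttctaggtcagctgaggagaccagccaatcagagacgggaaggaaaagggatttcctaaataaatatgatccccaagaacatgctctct
Cxcl10, chr5:92348890-92349139, minus strand: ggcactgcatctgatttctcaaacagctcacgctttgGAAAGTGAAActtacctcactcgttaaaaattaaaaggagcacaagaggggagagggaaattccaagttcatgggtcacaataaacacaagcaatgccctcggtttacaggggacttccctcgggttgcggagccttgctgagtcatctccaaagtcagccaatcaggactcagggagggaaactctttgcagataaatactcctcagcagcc
Trim30a, chr7:104465194-104465443, minus strand: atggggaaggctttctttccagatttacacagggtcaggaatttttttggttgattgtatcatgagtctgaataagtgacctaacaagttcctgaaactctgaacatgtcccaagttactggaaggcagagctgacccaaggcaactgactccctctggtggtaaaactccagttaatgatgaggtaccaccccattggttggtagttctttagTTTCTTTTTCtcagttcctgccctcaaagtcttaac
Cxcl10 and Trim30a each held 1 match and Cxcl9 none in this window. Of the 24 tested interferon genes with an entry 14 held the motif (58.3%), against 3.04% of all 27025 genes of the table. The ratio of Trim30a changed by -1.25, and whether holding the motif goes with the size of a change was not tested.

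Chemokines and their receptors were mixed, with 2 of 19 called higher and 7 lower, against 4.33% and 6.83% of all genes. Cxcr4, the receptor that holds cells near CXCL12-producing stroma, rose. It read -0.51, -0.71, 0.04, -0.63 and -0.69 at 4 weeks and 1.20, 1.13, 1.51, 1.42 and 1.11 at 20 weeks, a change of 1.77 ± 0.16 with a second probe at 1.49. The atypical receptor Ackr1, found on red cells and venules, rose by 1.41. Other receptors of migrating lymphocytes and monocytes were lower, Ccr2 by -1.36 ± 0.20, Ccr6 by -1.20 ± 0.13 and Cxcr3 by -1.17 ± 0.19, while Cxcr6 (-0.34) and Ccr3 (-0.04) were not called. Ccr6 stood at 0.13, 0.28, -0.13, 0.11 and 0.22 and then at -0.84, -0.90, -1.17, -1.26 and -1.22. The ligands Ccl24 (-2.07), Ccl8 (-1.63), Ccl4 (-1.49) and Cxcl16 (-1.14) were lower too. With campaign as a block 1 was called higher and 4 lower, Cxcr4 and Ccr6 among them at 1.76 and -1.81, and with normexp 1 and 3.

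The genes with the largest changes outside these lists included several that followed the scan campaign. Nlrx1, a mitochondrial protein of the NOD-like receptor family, had the largest fall of all. Its ratio was 5.62, 5.94, 6.05, 6.25 and 4.66 on the 4-week arrays and 0.26, 0.43, 0.52, 0.48 and 0.04 at 20 weeks, a change of -5.36 ± 0.25 (adjusted p = 2.4e-07, limma), all of it in the NOD dye (-5.55). The only other array of campaign 1, from 10-day mice, read 6.88, and the 10-day arrays of the 20-week scan day averaged -0.09. With campaign as a block the change was 1.62, in the opposite direction. Oosp1, a secreted oocyte protein, was lower by -5.12 with 4.75 on that 10-day array, and the blocked change was 0.20. Lca5, Rabl6 and Pgghg were lower by -2.94, -2.41 and -2.29, stood at 2.25, 2.04 and 2.48 on it, and changed by -0.95, -0.48 and -0.03 with the block (adjusted p = 0.15, 0.31 and 0.98, limma). For these 5 genes the mean ratios of the 10-day arrays of campaign 3 and of the 8-, 12- and 16-week arrays all lay between -0.62 and 0.54.

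The other 7 of the 12 largest falls kept their call with the block. Spry2, an inhibitor of receptor tyrosine kinase signalling, read -0.25, -0.28, -0.18, -0.24 and 0.00 at 4 weeks and -2.59, -2.17, -2.12, -2.79 and -2.80 at 20 weeks, a change of -2.31 ± 0.15, and -2.31 with the block. Its second probe changed by -0.39. The dye to which it is assigned did not hold: the NOD dye changed by -2.26 and the reference dye by 0.04, and with the block by 0.31 and 2.60. Lrrc3b and Zfp469 were lower by -2.57 and -2.38. With Spry2 they shared a course over the other ages, with mean ratios of 1.41 to 1.97 at 12 weeks and 2.41 to 2.53 at 16 weeks, above the level of 4 weeks. Ehbp1, Ces2c, Sorl1 and Slc23a1 were lower by -2.42, -2.41, -2.28 and -2.86. Sorl1 and Slc23a1 varied at 4 weeks, between -0.83 and 0.73 and between 0.05 and 2.05. With normexp the falls of all 7 were smaller, from -1.59 (Spry2) to -0.89 (Ces2c, which was then not called), with Ehbp1 at -1.23 and Slc23a1 at -1.51.

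Among the 12 largest rises, 10 kept their call with campaign as a block and all 12 their direction; the exceptions were Klf1 and Ccn2. Fam117a, whose 4-week ratios were -0.44, -0.50, -0.74, -0.36 and -0.43, reached 1.96, 2.22, 1.94, 2.12 and 2.60 at 20 weeks. This was a 6.34-fold rise (2.66 ± 0.14, adjusted p = 6.1e-07, limma), mainly in the NOD dye (1.95 against -0.72), although with the block the dyes changed by 1.17 and -1.28. Arf5, a small GTPase of the Golgi, was at -0.04, -0.04, -0.71, 0.10 and -0.05 and then at 2.38, 2.67, 2.42, 2.48 and 2.46. It rose by 2.63 ± 0.15. Kdelr2, which returns proteins to the endoplasmic reticulum, rose by 2.05 on one probe and changed by -0.18 on its other. Hnrnpl, a splicing factor, rose by 2.07 through the reference dye (-2.34, against -0.26 in the NOD dye), but with the block the NOD dye changed further (1.29, against -0.73). Dhrs11, a dehydrogenase, and Tuba1b, an alpha tubulin, rose by 2.18 and 2.08, Ccn2, a matricellular growth factor, by 2.0, and Trmo, a tRNA methyltransferase, by 1.99.

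**Figure D4:**
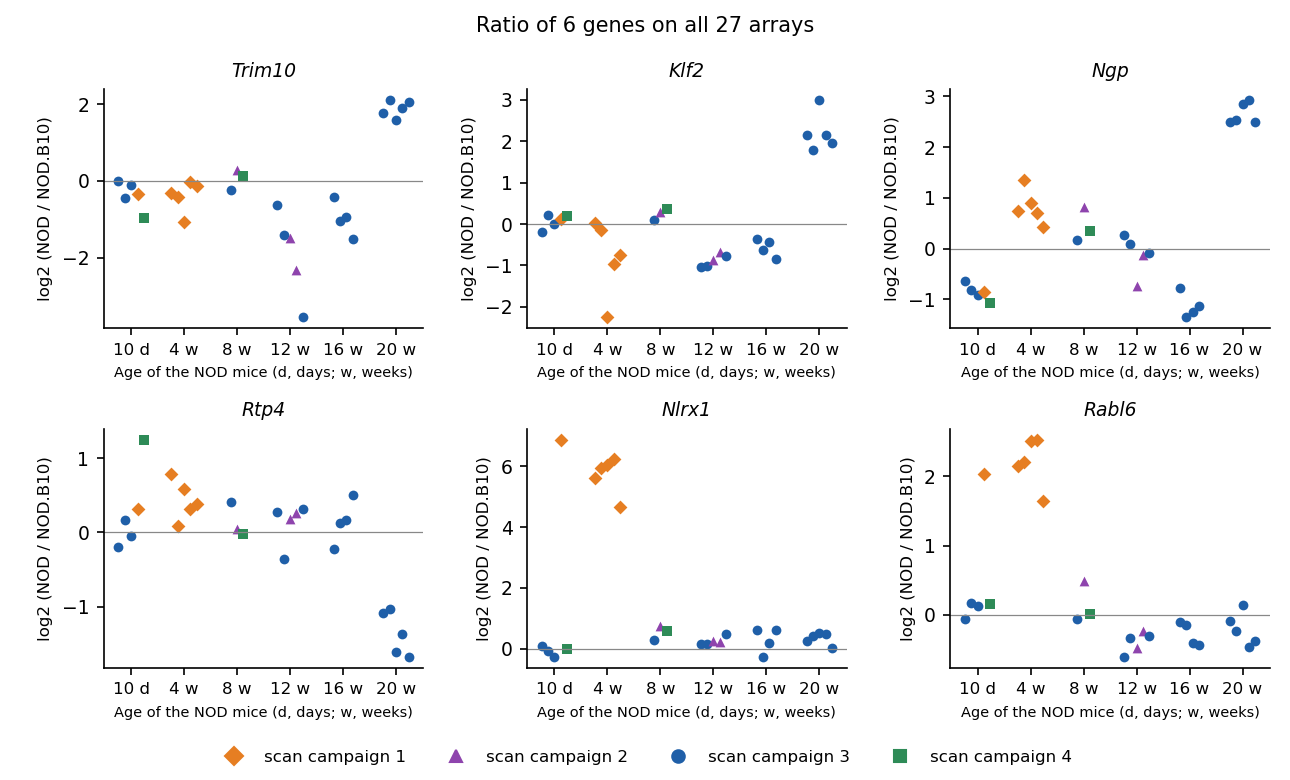
Ratio of NOD over NOD.B10 (log2, vertical) on all 27 arrays by age (horizontal) for 6 genes, with colour and shape giving the scan campaign. Trim10, Klf2 and Ngp are highest and Rtp4 lowest at 20 weeks, and lie apart from the 10-day arrays of the same campaign, whereas Nlrx1 and Rabl6 are high on all 6 arrays of campaign 1, the 10-day one (6.88 and 2.04) included.

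In antigen presentation 2 of 9 class II genes were called higher (4.33% of all genes) and 2 of 16 class I genes lower (6.83%). Cd74, the invariant chain of class II, read 0.28, 0.22, 0.24, -0.39 and -0.55 at 4 weeks and 1.21, 0.91, 1.1, 0.92 and 1.13 at 20 weeks, and H2-Eb1 0.48, 0.28, -0.23, -0.59 and -0.52 and then 0.93, 0.83, 0.88, 0.71 and 1.13. They rose by 1.1 ± 0.17 and 1.01 ± 0.20 and were the 2 called of 9 class II genes, whose median was 0.16. With the block H2-Eb1 was not called (0.85, adjusted p = 0.12, limma). Cd74 was called in all but 1 of the fits that leave out an array (0.97 without replicate 5 of 4 weeks), while H2-Eb1 lost its call without any of 4 arrays, at 0.89 to 0.99. Of 16 class I genes 2 were called lower, B2m by -1.08 ± 0.15 and H2-M3 by -1.04 ± 0.19, through the reference dye. The median was -0.18, and 4 class I genes were higher by adjusted p alone. This class I list had 2 calls with the block, 1 with normexp, and 1 or none without replicate 1, 2 or 3 of 4 weeks or replicate 5 of 20 weeks. NOD and NOD.B10 mice differ in sequence at the H2 genes, and whether the probes match both haplotypes alike was not tested. Beta-2 microglobulin (B2m) was also the 1 gene called of 5 tested candidates from diabetes loci of the strain. The other 4, Vav3, Slc11a1, Fcgr1 and Icos, changed by 0.08, 0.05, -0.37 and -0.60.

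Counts for the remaining cell types and processes follow, beside 4.33% of all genes called higher and 6.83% called lower. Of 24 B-cell genes 1 was called, Vpreb3, lower by -1.28, and the median was -0.20. In megakaryocytes and platelets 3 of 16 were lower (Ppbp, Selp and Clec1b) and 1 higher (Thbs1), and in macrophages 1 of 23 in each direction, C1qa by 1.35 and Siglec1 by -1.88. Rgs13 (-1.96) and Mef2b (-1.08) were lower of 4 germinal centre genes. Of 32 ribosomal protein genes 1 was called (Rps14, 1.01), and of 28 genes of oxidative phosphorylation and 22 of the proteasome none (limma), with 12 and 12 at an unadjusted p under 0.05, which 56.9% of all genes had. With the block none of the falls in megakaryocytes, macrophages and germinal centre genes was called (limma), and 4, 4 and 1 genes of these lists had an unadjusted p under 0.05. In the ratio, exocrine pancreas genes, foreign to the spleen, varied more between arrays of one age than between ages. The reference dye alone was called higher in 14 of 23 tested members and lower in 1, against 9.36% and 14.3% of all genes. The NOD dye alone was called in none. The list's median ratio ran from -3.26 to 3.22 at 4 weeks and from -4.69 to 2.76 at 20 weeks, and of 23 genes only Sycn was called (-3.56 ± 1.31, adjusted p = 0.038, limma), which was lost without any of 6 arrays and with the block (adjusted p = 0.23, limma). Without replicate 1 of 20 weeks 7 of the 23 were called lower, and without replicate 5 of 4 weeks 3.

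**Figure D5:**
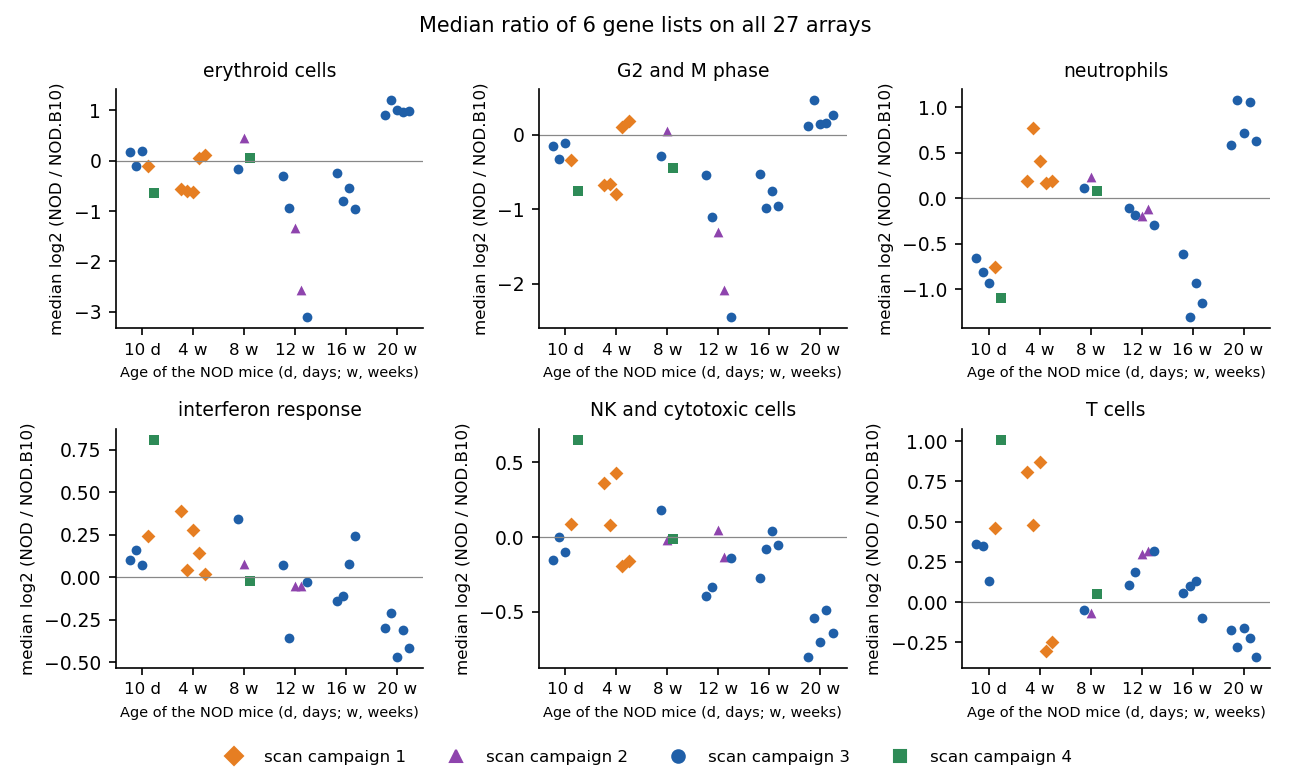
Median ratio (log2 NOD over NOD.B10, vertical) over the members of 6 gene lists on each of the 27 arrays by age (horizontal), with colour and shape giving the scan campaign. The erythroid list is above 0 on all 5 arrays of 20 weeks (0.90 to 1.21) and below 0 at 12 and 16 weeks, and the 4-week arrays split in the erythroid, division, NK and T-cell panels.

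Set among the other ages, the 20-week values of the erythroid and NK lists stood at an end of the range and the 4-week values did not. The erythroid list's median ratio was -0.64 to 0.19 at 10 days, -0.63 to 0.12 at 4 weeks, -0.17 to 0.45 at 8 weeks, -3.11 to -0.31 at 12 weeks, -0.95 to -0.24 at 16 weeks and 0.90 to 1.21 at 20 weeks. No array of another age reached the lowest 20-week array. In the neutrophil list the 20-week arrays (0.58 to 1.08) overlapped those of 4 weeks (0.17 to 0.77) and were above all others, with -1.31 to -0.62 at 16 weeks. The NK and cytotoxic list was at -0.80 to -0.49 at 20 weeks and at -0.39 or above on all other arrays. For the interferon list the 20-week range was -0.47 to -0.21, which the lowest 12-week array, at -0.36, entered. The T-cell list at 20 weeks (-0.34 to -0.16) overlapped replicates 4 and 5 of 4 weeks. The reference dye itself, which holds control mice on every array, was alike within an age and differed between these ages: over the tested probes its profiles correlated at 0.989 to 0.998 among 4-week arrays, at 0.984 to 0.994 among 20-week arrays and at 0.845 to 0.9 between them. With the 10-day array of campaign 1 the 4-week reference correlated at 0.952 to 0.961, and the 20-week reference correlated at 0.917 to 0.933 with the 10-day arrays of its own scan day. What part control age, control pool or scan campaign has in the changes of the reference dye cannot be told apart here.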

How the data were processed

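Spleen RNA of NOD (Cy3) and NOD.B10 (Cy5) mice was hybridised to Agilent 41K mouse arrays. The deposited scanner files give processed intensity per dye, background-subtracted and dye-normalized by the scanner software per the file headers, from Agilent Feature Extraction (8.5 in the submitters' processing notes, 8.1.1.1 and 8.5.1.1 in the headers). The authors' deposited value table holds log10 ratios equal to the scanner files' ratio (largest difference 5e-05 after its sign was turned). Genes were named through RefSeq accessions or symbols (11259 of 13537 matched). From the intensities, log2(Cy3/Cy5) and each dye alone, minus its 75th percentile on the array, were fitted with limma 3.58.1 in R 4.3.3 (lmFit, eBayes), 20 weeks minus 4 weeks, with no covariate, and adjusted by Benjamini-Hochberg over all 13537 genes. Calls needed adjusted p under 0.05 and a log2 change of at least 1. The p-values measure the spread between arrays, which may be technical. Scan campaigns are sets of scan days more than 30 days apart. Genes named are the 12 largest rises and falls without overlap, the 4 members of each list with the smallest p, and members of lists with 20% called; a few genes that this rule names are not reported here. Members, lists and tests were chosen with earlier results of these data known. Replicate numbers did not pair arrays across ages. The fit was tested on simulated data. Promoter motifs were counted in Python 3.11.15 and figures drawn with matplotlib 3.10.9.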

Additional observations from a re-analysis of the deposited data

Results flagged for a closer look

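In 12 of the 148 sets of 5 arrays behind the named genes, 1 array stood far from the other 4; chance gives about 1 in 20. Replicate 2 of 20 weeks was the array in 6 of the 12. It had the lowest ratio of its age for Hspa8 (0.58), Fkbp5 (-1.40) and Per1 (0.40), and the highest for Tuba1b (1.96), Mki67 (1.43) and the receptor Klrk1 (-0.41). The other 20-week arrays that stood apart were replicate 1 for Tnfrsf4 (-1.51), replicate 3 for Dapl1 (-0.27) and replicate 5 for Ccr2 (-1.09). Among the 4-week arrays they were replicate 3 for Arf5 (-0.71) and Cxcr4 (0.04) and replicate 5 for Oosp1 (1.84). The calls of these genes in the ratio held without the array that stood apart.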

How the results depend on the processing

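The count of 1511 called genes (38.8% of them higher) was 529 with normexp background correction and loess (265 higher and 264 lower, so 50.1% higher), 907 with campaign as a block over all 27 arrays (514 lower), 703 among genes brighter than the median (368 higher and 335 lower, so 52.3% higher) and 3515 with a filter on either dye (1181 and 2334). The fit of brighter genes tested fewer genes than the main fit and the filter on either dye let in more. Their counts therefore do not compare directly with 1511. Without dye normalization 926 were called higher. The block also left 234 called genes in the NOD dye and 1282 in the reference dye. Single genes changed sign in 5 cases: Nlrx1 (1.62) and Oosp1 (0.20) with the block, Fech (-0.06) without dye normalization, Ier2 (-0.12) as the mean of its probes and Nrp1 (0.20) with the filter on either dye. Of the 71 named genes that were called, 31 lost the call with the block and 2 more changed sign. With normexp 15 lost it and without dye normalization 14. As a mean of probes 8 lost it and 1 more changed sign. With all 27 arrays and no block none lost the call. The deposited value table holds the same ratio, so its calls were bound to be the same and are no separate check. Leaving out 1 array gave counts of 1335 (without replicate 3 of 4 weeks) to 1710 (without replicate 4). With replicate number as a block 1508 genes were called, all among the 1511; same-numbered arrays deviated with correlations of -0.25 to 0 and were not treated as pairs. A random block for scan day was not run, since each age has 1 scan day. Signal over background limits the comparison to 18372 of 41174 probes.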
